A study of Arabidopsis thaliana with 24 samples.

Results

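The genes described here are OCT1, which encodes an organic cation/carnitine transporter, and 8 genes whose transcript followed a like course in Arabidopsis roots. The signal was high in Pi-starved wild type roots, lower in Pi-starved phr1 roots and lower again in Pi-starved roots labelled phr1 phl1. Each gene is read by 1 probe set of the ATH1 array, so these are 9 of the 22746 non-control probe sets measured. By locus they are OCT1 (AT1G73220), AT5G17340, AT5G20790, AT2G04460, AT4G25160, AT1G23140, AT1G67600, AT1G08310 and FHL (AT5G02200). The genes were chosen by their root signals, with the strong rise in starved wild type in view, so the root values and the rise in wild type are given as a description, with a standard error and no test. The comparisons of mutant with wild type shoots were tested, although some of the largest shoot values were already known when the genes were chosen. They use the same wild type shoot arrays whose rise was in view. Their p-values and counts are therefore not independent of the choice of the genes.

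Expression was measured in 24 hybridisations, 3 for each of 8 groups, with total RNA from shoots and roots taken separately from plants grown for 7 days on solid Johnson medium with 2% sucrose. Wild type plants were grown with 2 mM Pi (+Pi) or without Pi (−Pi). The phr1 plants and the phr1 phl1 plants were grown at −Pi only, so the signal of a mutant at +Pi is not known here, and each mutant was set against the wild type of both media. All plants were of the Col-0 background by the study's methods, while the labels number the background differently for each sample, and phl1 is a T-DNA insertion line. Signals are log2 RMA values, so that a difference of 1 is a 2-fold change. RMA gives no detection call, and a signal near 3.58, the lower quartile of all values, is read only as low. Arrays of a group correlated at 0.968 to 0.994 on average over all probe sets, and precision is limited by the 3 arrays of each group.

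PHR1 is a transcription factor of the MYB-CC family that activates many Pi starvation genes, and PHL1 is a close relative with an overlapping role. Both bind a short promoter element named P1BS, and proteins with an SPX domain bind PHR1 when Pi is plentiful. Genes under this control serve Pi uptake, the release of Pi from organic compounds and the replacement of phospholipids, among other roles. Members of the OCT family move organic cations and carnitine across membranes, and OCT1 lies in the plasma membrane.

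The PHL1 probe set went against the label of the double mutant. Its signal was 7.06 to 8.36 in the 3 shoot arrays labelled phr1 phl1 against 4.34 to 5.50 in the other 9 shoot arrays. In roots it was 8.55 to 9.31 in the arrays with that label against 5.13 to 6.06 in the other 9. Where this probe set lies with respect to the insertion could not be read here, so every statement on the double mutant below concerns the arrays labelled phr1 phl1. Organ markers were also read. The 3 leaf markers that could be matched of 8 (RCA, PSAE-1 and PSAN, genes of photosynthesis) had a summed linear signal of 12970 to 17350 in shoots. In roots this sum was 159.1 to 231.5 in starved wild type, 224.1 to 268.8 in phr1 and 564.1 to 974.3 in the arrays labelled phr1 phl1.

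**Figure D1:**
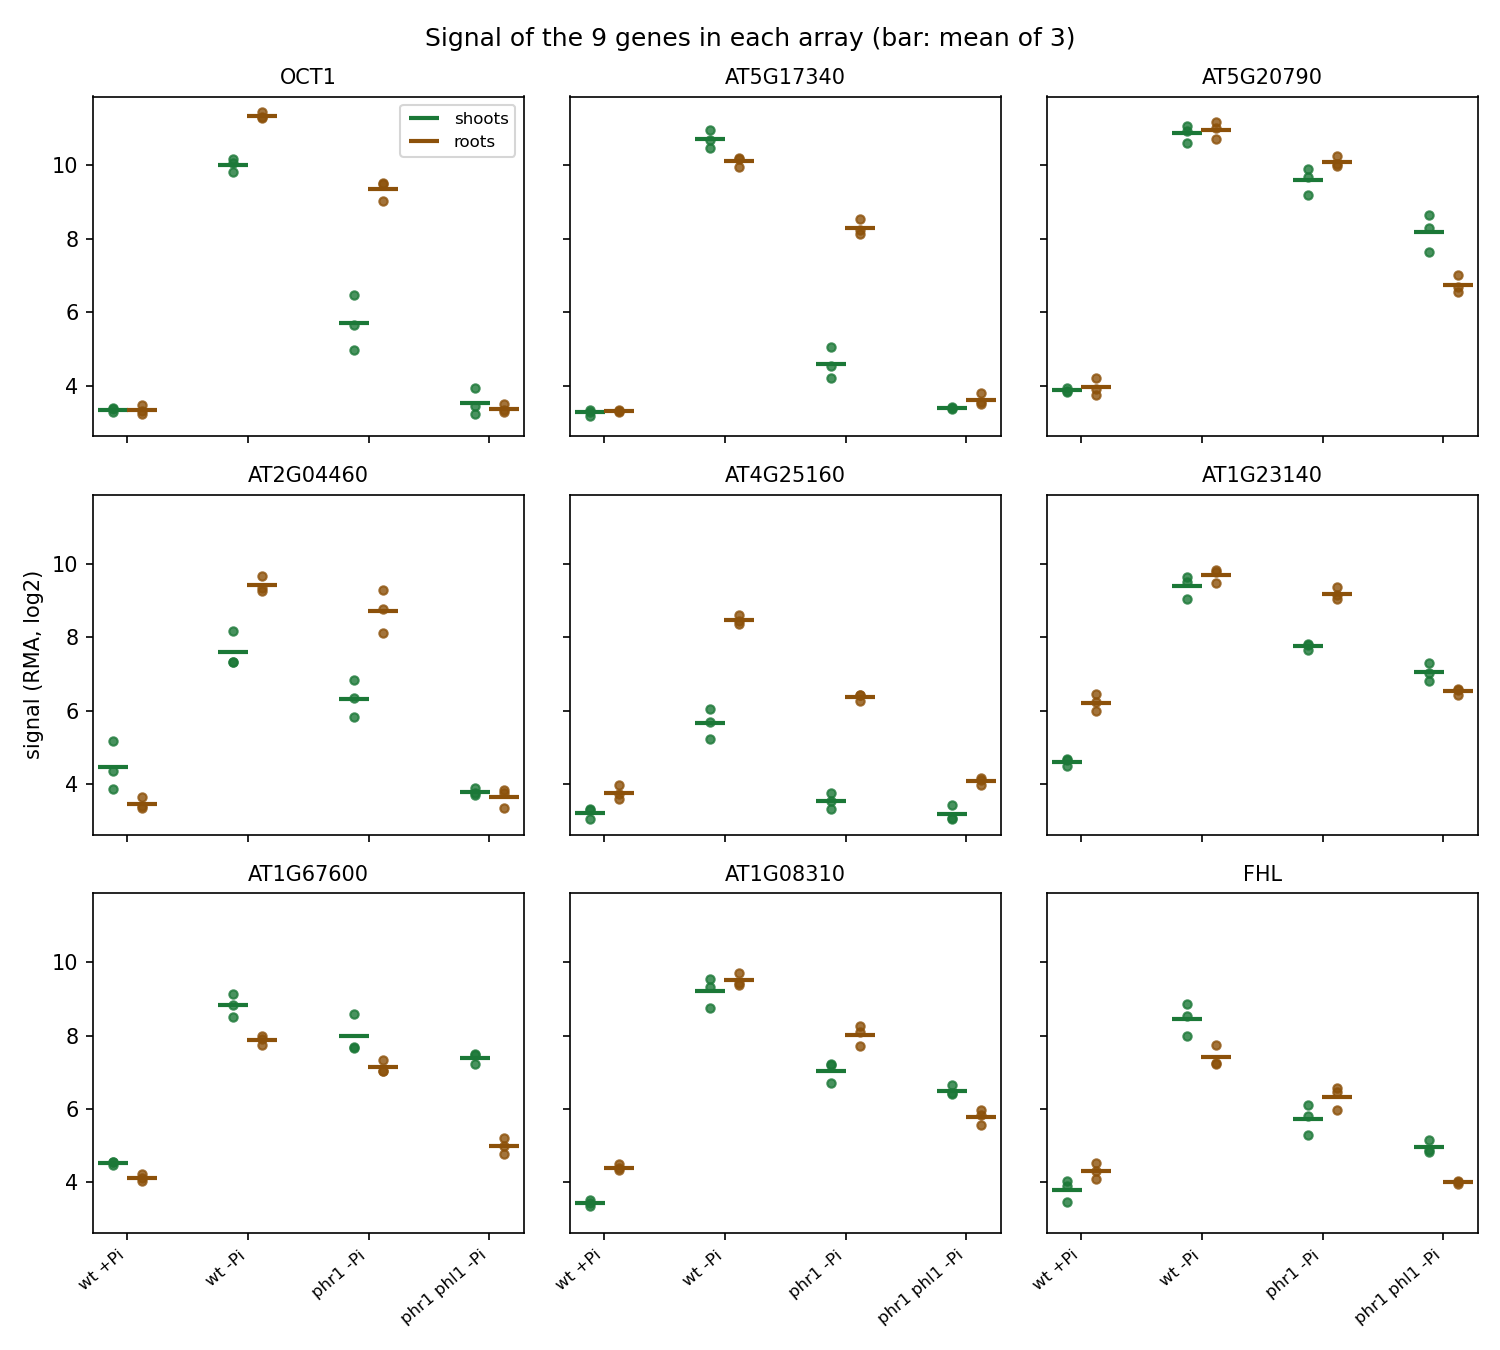
Signal (log2, RMA) of the 9 genes in each of the 24 arrays, by genotype and Pi supply (horizontal axis), with shoots and roots in different colours and bars for the mean of 3 arrays. In OCT1 the 3 arrays of phr1 roots lie at 9.03 to 9.53 and those of phr1 shoots at 4.97 to 6.48, while all 6 arrays labelled phr1 phl1 lie at 3.21 to 3.92.

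OCT1 was close to the bottom of the array in fed plants and close to its top in starved ones. The 3 wild type shoot arrays gave 3.27, 3.36 and 3.39 at +Pi and 9.81, 10.06 and 10.18 at −Pi. The root arrays gave 3.21, 3.30 and 3.46 at +Pi and 11.29, 11.46 and 11.31 at −Pi. At −Pi the root signal exceeded that of at least 99.09% of the probe sets on the same array, and at +Pi that of at most 23.11%. In phr1 the organs parted, with shoots at 5.64, 6.48 and 4.97 and roots at 9.50, 9.53 and 9.03. The arrays labelled phr1 phl1 were low in both, with shoots at 3.92, 3.21 and 3.45 and roots at 3.33, 3.28 and 3.50. By group mean the order was starved wild type roots, starved wild type shoots, phr1 roots and phr1 shoots, no neighbours of which overlapped, followed by both groups labelled phr1 phl1 and both fed wild type groups, whose arrays overlapped.

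AT5G17340, for which no role is given in the annotation used here, had the course most like that of OCT1. It was at 3.18 to 3.34 in the 6 fed wild type arrays, at 10.70, 10.98 and 10.47 in starved wild type shoots and at 10.21, 9.95 and 10.17 in starved wild type roots. In phr1 shoots it was at 4.54, 5.05 and 4.20, so that most of the rise was missing, whereas phr1 roots gave 8.13, 8.23 and 8.54. The arrays labelled phr1 phl1 gave 3.36, 3.39 and 3.41 in shoots and 3.79, 3.54 and 3.51 in roots, within 1 unit of the fed wild type in each organ.

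AT5G20790, whose role is likewise not given, kept much of its signal in the mutants. Wild type arrays gave 3.93, 3.82 and 3.86 in fed and 11.09, 10.61 and 10.93 in starved shoots. In shoots phr1 gave 9.68, 9.20 and 9.91, and the arrays labelled phr1 phl1 gave 8.28, 7.65 and 8.64, all far above the fed wild type. In roots the starved wild type gave 11.18, 10.72 and 11.01, phr1 10.05, 10.26 and 9.98, and the arrays labelled phr1 phl1 6.56, 6.68 and 7.02, against 3.75 to 4.19 in fed roots.

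AT2G04460 is listed as a pseudogene in RefSeq, and its probe set had the largest standard error of the 9, 0.321. Fed wild type shoots gave 4.34, 5.17 and 3.87 and starved ones 7.33, 8.16 and 7.32, and replicate 2 was the highest in each. Shoots of phr1 gave 5.81, 6.83 and 6.33, and those labelled phr1 phl1 3.74, 3.71 and 3.89, near the lowest fed array. Roots gave 3.35 to 3.66 in fed and 9.35, 9.68 and 9.27 in starved wild type, 8.11, 8.76 and 9.28 in phr1 and 3.77, 3.34 and 3.83 with the label phr1 phl1. It was the only 1 of the 9 genes in which the root arrays of phr1 and starved wild type overlapped. The arrays of these groups lay apart, with phr1 the lower, in 15.2% of all probe sets.

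AT4G25160 and AT1G23140 have predicted parts in protein turnover and at membranes. AT4G25160 encodes a kinase that also carries a U-box, a domain of ubiquitin ligases. It had the smallest rise in wild type shoots, from 3.04 to 3.31 at +Pi to 6.04, 5.23 and 5.70 at −Pi. Its shoot signal in phr1, 3.74, 3.31 and 3.53, was already low, and the arrays labelled phr1 phl1 gave 3.06, 3.43 and 3.07. In roots it went from 3.60 to 3.97 at +Pi to 8.61, 8.36 and 8.44 at −Pi, with 6.43, 6.27 and 6.41 in phr1 and 3.98, 4.15 and 4.10 in the arrays labelled phr1 phl1. AT1G23140, which encodes a protein with a C2 domain, a module that binds lipids in a calcium-dependent way, was higher in fed roots (5.99 to 6.44) than in fed shoots (4.49 to 4.67). In starved shoots it was at 9.65, 9.04 and 9.51 in wild type, 7.66, 7.81 and 7.79 in phr1 and 7.03, 7.29 and 6.81 in the arrays labelled phr1 phl1. In starved roots these were 9.78, 9.47 and 9.82, then 9.14, 9.36 and 9.04, and then 6.42, 6.59 and 6.56, so that the last group came close to the fed roots.

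AT1G67600 and AT1G08310 encode predicted enzymes, an acid phosphatase/haloperoxidase-related protein and an alpha/beta hydrolase. AT1G67600 was at 4.49 to 4.57 in fed and 8.52, 9.15 and 8.84 in starved wild type shoots, with 7.70, 8.60 and 7.66 in phr1 and 7.23, 7.47 and 7.50 in the arrays labelled phr1 phl1. Replicate 2 of phr1 lay within the wild type range, the only such overlap of phr1 with wild type among the 9 genes in shoots. Its root signal was 4.04 to 4.23 in fed and 7.75, 7.99 and 7.90 in starved wild type, 7.03, 7.05 and 7.35 in phr1 and 4.98, 4.78 and 5.20 with the label phr1 phl1. AT1G08310 was at 3.36 to 3.51 in fed and 9.56, 8.75 and 9.34 in starved wild type shoots, 7.22, 6.70 and 7.21 in phr1 and 6.66, 6.43 and 6.40 with the label phr1 phl1. In roots it was at 4.33 to 4.50 in fed and 9.39, 9.43 and 9.72 in starved wild type, 8.27, 8.09 and 7.73 in phr1 and 5.57, 5.97 and 5.84 with the label phr1 phl1. Neither returned to the fed level in any array of a mutant.

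FHL encodes a relative of FHY1, and both proteins carry the far-red photoreceptor phytochrome A into the nucleus. Its signal was 3.47 to 4.03 in fed and 8.53, 7.98 and 8.87 in starved wild type shoots. In shoots phr1 gave 5.81, 5.29 and 6.12 and the arrays labelled phr1 phl1 4.90, 5.16 and 4.82. In roots the starved wild type gave 7.24, 7.23 and 7.75, phr1 6.47, 6.58 and 5.97, and the arrays labelled phr1 phl1 3.97, 4.03 and 4.03, which lay below all 3 fed arrays (4.11 to 4.52).

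In shoots 8 of the 9 genes were lower in phr1 than in wild type at −Pi, by more than 2-fold and with adjusted p under 0.05 in the limma fit across all probe sets, a rule that 6.63% of all probe sets met in this direction. Of the 435 probe sets called higher at −Pi in wild type in both organs, all 9 genes among them, 71.3% met it. AT5G17340 changed by −6.12 on the log2 scale (69.6-fold lower, standard error 0.165, adjusted p = 1.33e-15) and OCT1 by −4.32 (20.0-fold lower, standard error 0.252, adjusted p = 1.43e-10). FHL changed by −2.72 (adjusted p = 2.59e-08), AT1G08310 by −2.17 (adjusted p = 2.19e-08) and AT4G25160 by −2.13 (adjusted p = 8.17e-09). The changes of AT1G23140, AT5G20790 and AT2G04460 were −1.65, −1.28 and −1.27. AT1G67600 differed by −0.85 (adjusted p = 0.00195), which is less than 2-fold. In 8 genes no phr1 array overlapped a wild type array, which held for 16.2% of all probe sets in this direction. The call of AT2G04460 rested on 1 array: without replicate 2 of starved wild type shoots its difference was −0.99, and without replicate 1 of every group its adjusted p was 0.0777. The call of AT1G67600 turned on 1 array too, since its difference was −1.15 without replicate 2 of phr1 shoots and −1.01 without replicate 1 of starved wild type shoots.

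Of the 9 genes, 4 were also lower in the shoots labelled phr1 phl1 than in phr1 by the same rule, against 0.563% of all probe sets. AT2G04460 changed by a further −2.55 (standard error 0.321, adjusted p = 1.81e-04), OCT1 by −2.17 (standard error 0.252, adjusted p = 7.72e-05), AT5G20790 by −1.41 (adjusted p = 0.00145) and AT5G17340 by −1.21 (adjusted p = 4.74e-04). AT1G23140 differed by −0.71 (adjusted p = 0.0195), less than 2-fold. FHL differed by −0.78 (95% interval −1.27 to −0.29, adjusted p = 0.116), AT1G67600 by −0.59 (interval −0.99 to −0.18) and AT1G08310 by −0.55 (interval −0.94 to −0.17), the latter pair with adjusted p = 0.179. For AT4G25160, whose phr1 shoots were already low, the difference was −0.34 (interval −0.69 to 0.01, adjusted p = 0.490). The arrays of both mutants did not overlap in 8 genes, compared with 6.44% of all probe sets. The same count of 4 was reached when the 12 shoot arrays were fitted alone. With the 6 arrays of both groups alone, 0 of the 9 genes passed (adjusted p from 0.0904 to 0.706 in limma), although 7 had an unadjusted p under 0.05, and 1 probe set passed on the whole array. Without replicate 1 of every group 2 genes passed, as AT5G17340 and AT5G20790 did not (adjusted p = 0.128 and 0.175), and without replicate 2 of phr1 shoots the difference of AT5G17340 was −0.98 while FHL passed just beyond 2-fold (adjusted p = 0.0473).

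Against wild type at −Pi, all 9 genes were lower in the shoots labelled phr1 phl1, a rule met by 8.2% of all probe sets. It was met by 80.5% of the 435 probe sets called higher at −Pi in wild type in both organs. The changes ran from −1.43 in AT1G67600 (adjusted p = 6.29e-06) to −7.33 in AT5G17340 (adjusted p = 7.43e-17), and that of OCT1 was −6.49 (adjusted p = 2.93e-13). As OCT1 and AT5G17340 were at a low signal in these arrays, their differences are given with no fold. All 3 comparisons of this kind share arrays: those of phr1 enter the first and the second with opposite sign, and those of starved wild type enter the first and the third.

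The genes split by what was left in starved shoots above the fed wild type. In phr1, 8 of the 9 were still higher than in fed wild type (4.33% of all probe sets), from 1.33 in AT5G17340 (adjusted p = 6.56e-06) to 5.73 in AT5G20790 (adjusted p = 4.06e-12). The exception was AT4G25160 with 0.32 (interval −0.03 to 0.66, adjusted p = 0.196). With the label phr1 phl1, 5 were still higher (3.99% of all probe sets). AT5G20790 was higher by 4.32 (standard error 0.217, adjusted p = 8.11e-11), AT1G08310 by 3.05, AT1G67600 by 2.87, AT1G23140 by 2.44 and FHL by 1.16 (adjusted p = 0.00102). The other 4 were OCT1 with 0.18 (interval −0.34 to 0.71, adjusted p = 0.686), AT5G17340 with 0.12 (interval −0.23 to 0.46, adjusted p = 0.691), AT4G25160 with −0.03 (interval −0.37 to 0.32, adjusted p = 0.947) and AT2G04460 with −0.68 (interval −1.35 to −0.01, adjusted p = 0.139). For OCT1 and AT5G17340 these intervals leave room for little of a rise that measured 6.67 and 7.45 in wild type shoots, while the fed shoot arrays of AT2G04460 ranged from 3.87 to 5.17. FHL was the only gene among the 5 to depend on 1 array, as 4 passed without replicate 2 of fed wild type shoots.

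**Figure D2:**
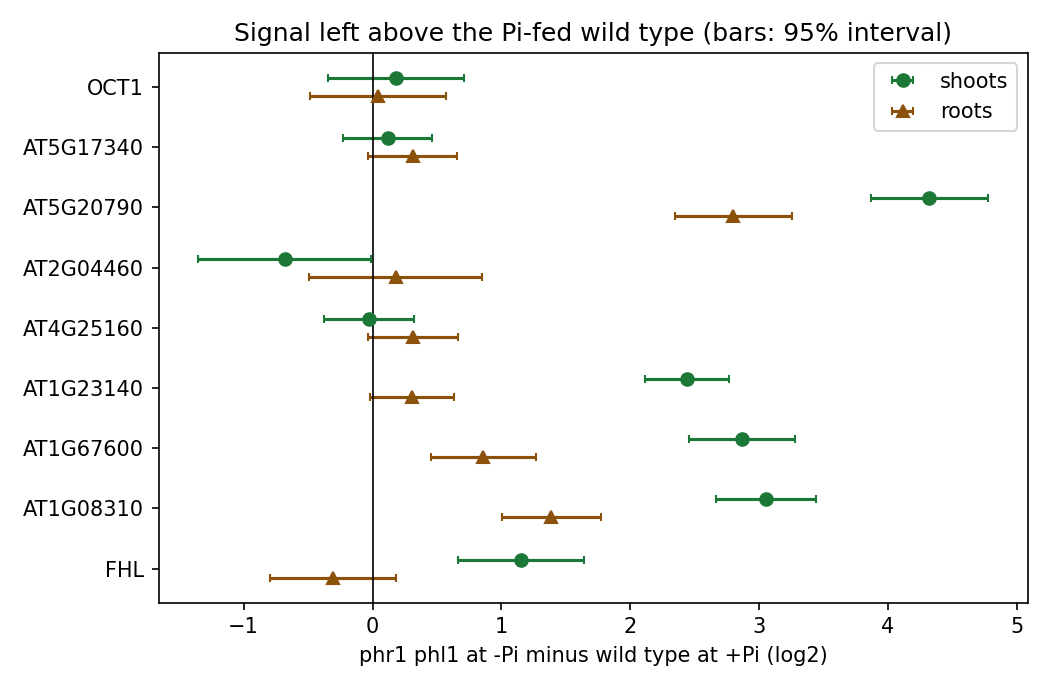
Signal left in the starved arrays labelled phr1 phl1 above the fed wild type (horizontal axis, log2 difference) for each gene in shoots and roots, with 95% intervals. OCT1, AT5G17340, AT2G04460 and AT4G25160 lie within 1 unit of 0 in both organs, while AT5G20790 keeps 4.32 in shoots and 2.80 in roots.

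In roots, where the signals chose the genes, the steps had other sizes. Between phr1 and starved wild type the difference ran from −0.51 in AT1G23140 (standard error 0.155) to −2.10 in AT4G25160 (standard error 0.167), with a 3.99-fold lower signal in OCT1 and log2 differences of −1.81 in AT5G17340, −1.48 in AT1G08310, −1.07 in FHL, −0.87 in AT5G20790, −0.74 in AT1G67600 and −0.71 in AT2G04460. As a description, 5 of the 9 genes lay past the thresholds used in shoots, as did 0.919% of all probe sets in this direction. Between the arrays labelled phr1 phl1 and phr1 it ran from −2.15 in AT1G67600 to −5.98 in OCT1, with −5.07 in AT2G04460, −4.69 in AT5G17340, −3.34 in AT5G20790 and −2.66 in AT1G23140. Against starved wild type roots it ran from −2.89 to −7.98. The choice of the genes by their root signals fixed that all 9 lay past the thresholds in these latter comparisons, where 0.809% and 2.19% of all probe sets did, and nothing is read from these counts. Against the fed wild type, the roots labelled phr1 phl1 differed by 0.04 in OCT1, 0.18 in AT2G04460, 0.31 in AT5G17340 and AT4G25160, 0.30 in AT1G23140 and −0.31 in FHL, and by 0.86 in AT1G67600, 1.39 in AT1G08310 and 2.80 in AT5G20790. The 3 leaf markers were higher in these roots than in starved wild type roots, by a median of 1.84, and EXPA7, a root hair expansin and the 1 root marker matched of 8, was at 7.25 to 7.78 there, 8.46 to 8.67 in phr1 roots and 7.48 to 7.91 in starved wild type roots. Their part in the result was not tested, and in RNA from whole organs fewer cells of a type and less RNA per cell cannot be told apart.

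Set side by side on the log2 scale, the step from wild type to phr1 was the larger of both in shoots, except in AT2G04460 and AT5G20790, and the step from phr1 to the arrays labelled phr1 phl1 was the larger in roots in all 9 genes. In AT4G25160 the root steps were −2.10 and −2.29 (standard error 0.167 each), so their order is within the error. The same holds for the shoot steps of AT5G20790, −1.28 and −1.41 (standard error 0.217 each). It also holds for those of AT1G67600, −0.85 and −0.59 (standard error 0.195 each). By its estimate the phr1 difference was larger in shoots in all 9 genes, by 4.31 in AT5G17340 (standard error 0.233), 2.32 in OCT1 (0.356), 1.65 in FHL (0.331) and 1.13 in AT1G23140 (0.219). It was nearly equal in AT4G25160, where roots and shoots were 0.03 apart (standard error 0.236), and in AT1G67600, where they were 0.11 apart (0.276), so for these genes the order of the organs is within the error and turned when single arrays were left out. The organs were 0.56 apart in AT2G04460 (95% interval −0.39 to 1.51) and 0.40 apart in AT5G20790 (interval −0.24 to 1.05). These intervals include 0, so the order of the organs is not settled there either. The further difference in the arrays labelled phr1 phl1 was larger in roots in all 9 genes, an order that the choice by root signals favoured. Roots minus shoots was −3.82 in OCT1 (standard error 0.356), −3.48 in AT5G17340 (0.233), −2.52 in AT2G04460 (0.454) and −1.95 to −1.55 in the other 6. For AT4G25160 the organs thus differed by −1.95 (standard error 0.236) in the second step and by next to nothing in the first. Its phr1 shoots lay only 0.32 above the fed wild type, and those of AT5G17340 1.33 above it. Phr1 shoots of AT2G04460, FHL and OCT1 lay 1.86, 1.93 and 2.35 above fed shoots. Their phr1 roots lay 5.25, 2.02 and 6.03 above fed roots. In the remaining genes phr1 shoots lay 3.15 to 5.73 above fed shoots. Whether the size of the second step depended on what the first had left was not tested.

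**Figure D3:**
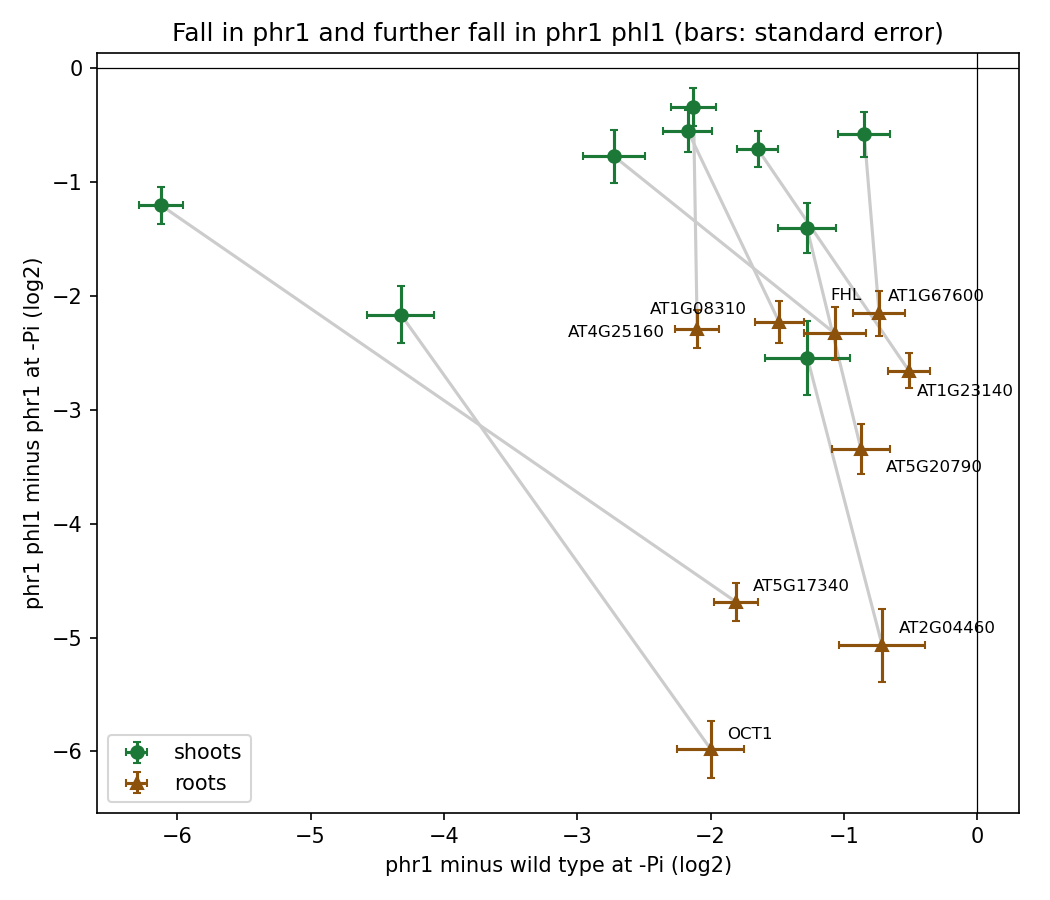
Difference between phr1 and wild type at −Pi (horizontal axis, log2) and between the arrays labelled phr1 phl1 and phr1 (vertical axis, log2) for each gene, with standard errors and a grey line joining the shoot and root value of 1 gene. Every line runs down and most run to the right from shoots to roots, and AT5G17340 moves from −6.12 and −1.21 to −1.81 and −4.69.

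Expressed as parts of the wild type rise on the log2 scale, OCT1 lost 64.8% of it in phr1 shoots and 24.9% in phr1 roots (standard error 3.31 and 2.83). A further 32.5% and 74.5% was lost in the arrays labelled phr1 phl1, leaving 2.75% in shoots and 0.559% in roots (standard error 3.72 and 3.13). For AT5G17340 the part lost in phr1 was 82.2% in shoots and 26.6% in roots, and for FHL it was 58.5% and 34.6%. AT2G04460 had the largest estimated loss in the second step in both organs, 81.1% in shoots (standard error 13.2) and 85.0% in roots (standard error 7.06). In shoots its part left was −21.7% (standard error 11.5), as the arrays labelled phr1 phl1 had a mean below the fed wild type. In roots AT1G23140 came next with 76.5% (standard error 5.62), so the order there is within the error. AT5G20790 and AT1G67600 lost only 18.2% and 19.7% in phr1 shoots and kept 61.7% and 66.7% of the rise in the shoots labelled phr1 phl1, against 39.9% and 22.9% in the roots. The median over the 9 genes was 40.6% lost in phr1, 16.2% lost further and 24.8% left in shoots, and 24.9%, 68.8% and 6.65% in roots. On the linear scale, on which the top of the range weighs more, the median lost in phr1 was 79.5% in shoots and 59.1% in roots and the median lost further 7.23% and 43.5%, so by the median the first step was then the larger in roots too. In AT2G04460, AT1G23140, AT1G67600 and AT5G20790 the second step stayed the larger in roots on this scale.

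**Figure D4:**
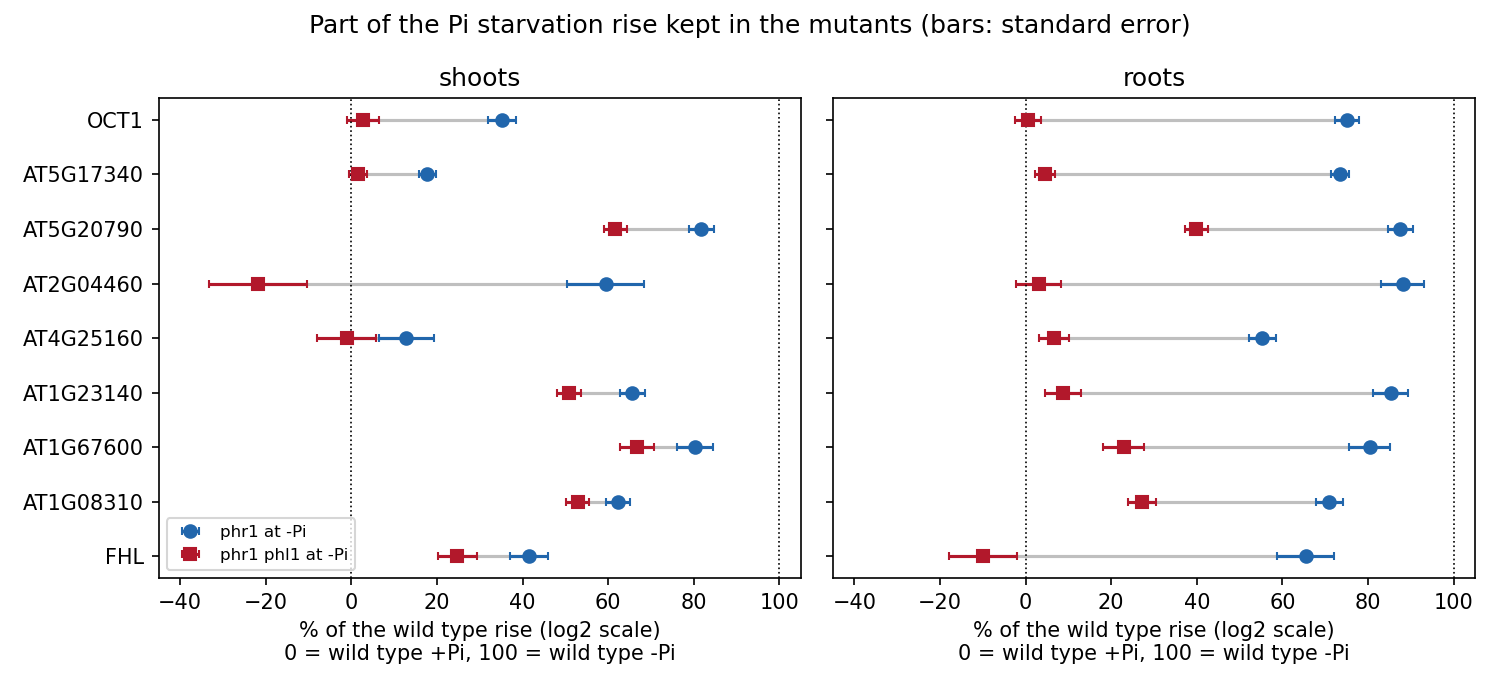
Part of the wild type rise kept at −Pi in phr1 and in the arrays labelled phr1 phl1 (horizontal axis, % of the log2 rise, with 0 the fed and 100 the starved wild type) in shoots and roots, with standard errors. In roots every gene keeps over 50% of its rise in phr1, and in shoots OCT1, AT5G17340, AT4G25160 and FHL do not.

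The direction of the first step was that of most induced genes, whereas that of the second, which the choice by root signals favoured in the 9 genes, was less common. Of all probe sets, 8.26% were called higher at −Pi in wild type shoots and 3.05% in wild type roots, and 435 were called in both organs, all 9 genes among them. Over these 435, the median difference between phr1 and wild type was −1.46 in shoots and −0.57 in roots, compared with −2.13 and −1.07 over the 9 genes. The phr1 difference was larger in shoots in 392 of the 435 (90.1%). The further difference had a median of −0.40 in shoots and −0.49 in roots, compared with −0.78 and −2.66 over the 9 genes, and it was larger in roots in 262 (60.2%). The root signals chose the 9 genes, so their root medians and organ order are a description and nothing is read from them. Both held in 238 of the 435 (54.7%). Of the 435, 12% were called lower in the shoots and 21.8% in the roots labelled phr1 phl1 than in phr1.

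The likeness of the genes to OCT1 was described in each organ. As their root signals chose the genes, a higher correlation in roots was favoured by the choice. No difference between the organs is read from it. Over the 12 root arrays the signal of AT5G17340 followed that of OCT1 with a Pearson r of 0.996, the highest of all probe sets, and those of AT1G23140, AT2G04460 and FHL with r from 0.986 to 0.989. The lowest of the 8 were AT1G08310 with 0.964 and AT5G20790 with 0.931, the latter ranking 107 among all probe sets. Over the 12 shoot arrays the r with OCT1 was 0.979 for AT5G17340, 0.943 for FHL and 0.934 for AT4G25160, but 0.847 for AT1G23140, 0.751 for AT5G20790 and 0.740 for AT1G67600. Over the 36 pairs among the 9 genes the median r was 0.972 in roots and 0.842 in shoots, and the lowest was 0.887 and 0.602. The arrays of a group share their plants' treatment, so these values mostly describe the 4 group means of an organ. Outside the 9, the 8 probe sets most like OCT1 in roots had r from 0.985 to 0.996, and 3 of them could be named. VTC4, which encodes a phosphatase of ascorbate and inositol synthesis, differed by −0.59 between phr1 and wild type roots and by −1.73 between the roots labelled phr1 phl1 and phr1, and by −0.98 and −0.68 in shoots. AT3G50350 differed by −0.63 and −1.62 in roots and −1.45 and −0.41 in shoots, and AT4G23000 by −0.47 and −1.68 in roots and −0.81 and −0.38 in shoots. An unnamed probe set, ranked 2 in likeness to OCT1 in both organs, differed by −2.54 and −5.07 in roots and by −4.03 and −2.74 in shoots.

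Few relatives of these genes could be read, and most of those took another course. Of the 6 OCT transporters, OCT4 and OCT5 could be read beside OCT1. OCT4 was called higher at −Pi in wild type, with 2.69 in shoots (adjusted p = 5.29e-09, standard error 0.210) and 1.31 in roots (adjusted p = 2.14e-04). From starved wild type it differed by −0.57 in phr1 shoots and 0.28 in phr1 roots. In the shoots labelled phr1 phl1 it differed by −0.77 (limma adjusted p = 0.00605), less than 2-fold. Neither OCT4 nor OCT5 was called lower in a mutant than in starved wild type. OCT5 was called higher in the roots labelled phr1 phl1 than in starved wild type roots (1.28, limma adjusted p = 0.0435). Neither FAR1 nor LAF1, which encode partners of phytochrome A signalling and were the other 2 of 7 listed genes matched beside FHL, was called in any comparison. Among the 6 other U-box kinases, AT2G45910 and AT5G61550 were called higher at −Pi in wild type in both organs, by 1.49 and 1.92 in shoots and 1.88 and 3.50 in roots. AT5G61550 changed in phr1 by −1.90 in shoots (adjusted p = 1.36e-07) and −2.24 in roots (adjusted p = 1.20e-07), but its further difference in roots labelled phr1 phl1 was −0.65 (adjusted p = 0.0569), against −2.29 for AT4G25160. AT2G45910 changed by −1.08 in phr1 shoots (adjusted p = 1.09e-04), and its root difference was just short of 2-fold. AT5G61560 went the other way and was called higher in phr1 than in wild type shoots at −Pi (1.03, limma adjusted p = 0.00286). Among the 5 other C2 domain proteins matched of the family of AT1G23140, AT1G70810 was called higher in starved wild type shoots (2.32, adjusted p = 3.04e-05) and lower in phr1 shoots (−1.35, adjusted p = 0.00591), and none was called higher in starved than in fed wild type roots. AT1G70790 was instead called higher than in starved wild type shoots in phr1 (1.36, limma adjusted p = 1.67e-06) and in the shoots labelled phr1 phl1 (1.23, limma adjusted p = 4.39e-06). Of 30 listed Pi starvation genes 3 could be matched. SPX1, whose product restrains PHR1, and MGD2, which encodes a galactolipid synthase, were each called higher at −Pi in wild type in both organs and lower in the roots labelled phr1 phl1 than in phr1, with differences of −2.80 and −1.86 (adjusted p = 4.30e-06 and 9.78e-07). Between phr1 and starved wild type roots SPX1 differed by −0.77 (limma adjusted p = 0.174) and MGD2 by −2.44 (limma adjusted p = 1.70e-08). The first root step of MGD2 was thus the larger, unlike in the 9 genes. In shoots their further differences were −0.61 and −0.57 and were not called (adjusted p = 0.479 and 0.122), and PAP26, a purple acid phosphatase, was not called in these comparisons.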

How the data were processed

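Affymetrix ATH1 arrays were hybridised with RNA from wild type, phr1 and phr1 phl1 shoots and roots. The deposited values are log2 signals that the authors computed with RMA (background correction, normalization and summarization over the arrays); no genome build applies, and replicates were not pooled. Replicates are described as independent biological samples. Probe sets were named through the platform annotation and RefSeq (TAIR10.1), or through a locus in the study's supplementary lists: 14160 matched 1 gene (647 of them by such a locus), 503 several and 8083 none. Columns of fold changes and p-values in those lists were not used. The 64 control probe sets were left out, and 22746 were fitted in 1 limma model (version 3.58.1, R 4.3.3) of 8 group means over 24 arrays, tested on simulated data. Calls needed more than 2-fold and a Benjamini-Hochberg adjusted p under 0.05 over all probe sets.

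The genes and the lists were chosen with earlier results of these data known. Named genes were the 9, PHL1, the 8 probe sets most correlated with OCT1 in root arrays and at most 4 members of each list. The share of the rise is a ratio of group mean differences, with a delta-method error. Correlations are descriptions without p-values. Whether equal replicate numbers pair arrays was checked by correlating deviations from the group means. All 3 pairs exceeded 0.1 for phr1 against starved wild type shoots only (0.499, 0.654 and 0.433), and with the replicate number as a block 8 genes were again called lower there. In 8 of the 9 genes the replicate 2 arrays of these groups deviated in the same direction. Promoter and protein sequences were not analysed here.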

Additional observations from a re-analysis of the deposited data

How the results depend on the processing

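Within 1 organ, no difference of a gene among phr1, the arrays labelled phr1 phl1 and starved wild type changed its sign under the alternatives run. Differences from the fed wild type were followed only as counts of genes, so their signs were not checked. The organ difference of the phr1 step changed sign in AT1G67600 (−0.146 to 0.416) and AT4G25160 (−0.167 to 0.243) when arrays or replicate numbers were left out. The replicate block in the fit of all 24 arrays changed no count of genes (8, 4, 9, 8 and 5 in the 5 shoot comparisons), nor did fitting the organs separately, leaving out the dimmest 25% of probe sets, other normalizations or other variance settings move a count by over 1.5 times. The count lower in the shoots labelled phr1 phl1 than in phr1 was 0 with only the 6 arrays of both groups, and 0 with a replicate block in these arrays, an alternative chosen after seeing the data (7 genes at unadjusted p under 0.05 in limma, 0 probe sets called in all). These fits hold fewer arrays. Outside phr1 against starved wild type shoots, the numbers are only shared: deviations correlated at −0.588 to 0.555, and 14 of 24 arrays correlated best with their own number. When arrays or replicate numbers were left out in turn, that count was 2 to 4, the count lower in phr1 shoots 7 to 9 and in phr1 roots 4 to 6, the count still higher than fed wild type in the shoots labelled phr1 phl1 4 to 5, the count with a larger phr1 difference in shoots 7 to 9, and the other counts did not move. On the linear scale the median shares were 79.5%, 7.23% and 4.90% in shoots and 59.1% and 43.5% lost in roots. Of the other 8 genes, 7 were among the 50 probe sets most like OCT1 in roots by Pearson r over arrays, 2 by Spearman's rho and 1 over the 4 group means; the cause was not tested. The search of promoters for the P1BS element was not run. Low signals have no detection call, so differences between them carry little information.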
